A study of Mus musculus with 847 samples.

Results

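The synaptic vesicle and release genes described here are 41 mouse genes whose proteins build the synaptic vesicle, prime it at the active zone, trigger its fusion or load it with glutamate. They were taken as a list of symbols, and all 41 were found among the 21076 genes of the deposited count table. They fall into 9 role groups: 8 synaptotagmins that act as calcium sensors, 5 synaptotagmins with no or weak calcium binding, 4 SNARE proteins, 3 complexins, 3 synapsins, 4 glycoproteins of the vesicle membrane, 3 Rab3 GTPases, 8 active zone proteins and 3 vesicular glutamate transporters. Bulk RNA-seq was made from 15 dissected brain regions of 59 mice of the strain C57BL/6JN, with no treatment or genetic change named in the labels. Mice of 3, 12, 15 or 18 months came as 5 of either sex per age, and the 21-month group as 6 males with 5 females. The 26-month group (5 mice) and the 28-month group (3 mice) held males alone. The study compared regions, ages and sexes, and the same was done here for these genes.

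Neurons release transmitter when a vesicle docked at the active zone fuses with the plasma membrane. A bundle of SNARE proteins pulls the membranes together, Munc13 and RIM proteins prepare the vesicle, complexin clamps the bundle, and a synaptotagmin releases the clamp when calcium enters. Most of these proteins come as families of paralogs, and neuron types differ in which paralog they use, so a change in level within tissue can reflect either the amount of RNA per cell or the mix of cells. In bulk tissue, fewer cells of a type and less RNA per cell cannot be told apart.

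The 847 libraries held 481444 to 26756735 reads (median 6716032), and each region had 51 to 59 libraries. Levels are given as CPM, reads per 1e+06 reads of the library. Against the mean profile of every region, 14 libraries lay nearest to a region other than their own, 8 of them posterior hippocampus libraries nearest to the anterior hippocampus; the entorhinal cortex library of mouse 52 correlated at 0.904 with the medulla and 0.656 with its own region. The libraries labelled choroid plexus were mixed tissue: transthyretin (Ttr), the defining transcript of its epithelium, took a median of 0.546% of reads, while 14 neuron genes outside the release machinery summed to 6106 CPM there, against 7046 CPM in motor cortex. The corpus callosum libraries held a median of 5770 CPM of 8 striatal projection neuron genes, against 10070 CPM in caudate putamen. Release genes measured in these 2 regions therefore include RNA from neurons, whose origin was not tested.

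Promoter sequence is shown for the 2 members whose window held letters of the RE1 element, the site of the neuronal repressor REST, because both fell with age in the regions described later. Syn1, which codes for synapsin I, lies on the minus strand of chromosome X (GRCm38, X:20860511-20921004). Unc13a, which codes for the priming factor Munc13-1, lies on the minus strand of chromosome 8 (8:71624417-71671757). The windows come from RefSeq (GRCm38.p6), run from 250 bases before to 50 bases after the annotated start, and are read 5′ to 3′ along the gene, chrX:20920869-20921168 and chr8:71671708-71672007. Capitals mark the motifs found.
Syn1: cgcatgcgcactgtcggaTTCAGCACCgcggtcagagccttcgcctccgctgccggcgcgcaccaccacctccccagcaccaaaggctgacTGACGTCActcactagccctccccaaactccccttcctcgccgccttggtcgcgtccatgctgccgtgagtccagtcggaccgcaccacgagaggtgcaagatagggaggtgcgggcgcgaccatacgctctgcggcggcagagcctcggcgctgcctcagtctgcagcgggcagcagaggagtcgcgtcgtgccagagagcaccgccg
Unc13a: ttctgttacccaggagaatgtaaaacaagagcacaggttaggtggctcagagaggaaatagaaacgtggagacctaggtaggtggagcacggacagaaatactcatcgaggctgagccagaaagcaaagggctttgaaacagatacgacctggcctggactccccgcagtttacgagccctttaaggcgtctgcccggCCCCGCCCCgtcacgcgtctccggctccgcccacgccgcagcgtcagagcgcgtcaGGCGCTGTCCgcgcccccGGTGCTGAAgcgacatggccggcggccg
In Syn1 the capitals are the left part of the RE1 element (TTCAGCACC, 232 bases before the start) and the cAMP response element (TGACGTCA, 159 bases before it). In Unc13a they are, on the opposite strand to the gene, the GC box (GGGGCGGGG), the right part of the RE1 element and its left part. Both strands of all 32851 promoter windows were searched, and no 2 of these motifs overlapped in the windows shown. The left part was in 0.371% of them, the right part in 0.521%, the cAMP response element in 1.79% and the GC box in 11.4%. Of the 41 members, 31 had a window, and 14 of those held a GC box, among them Stx1a, Rab3a, Sv2a, Rims1 and Pclo. These are matches of letters and say nothing of binding.

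The levels of these genes differed far more by region than by age or sex. Over log2 CPM in all libraries, region accounted for a median of 86.9% of a member's variance, against 71.6% over 13861 genes with a mean of at least 10 reads. Age accounted for a median of 0.188% (0.553% over those genes) and sex for 0.00967% (0.0444%). Stx1a depended most on region (95.2%) and Sv2a least (75.6%). The members did not share 1 pattern: 8 were highest in thalamus, 7 in motor cortex and 5 each in entorhinal cortex, medulla and olfactory bulb, while 7 were lowest in cerebellum and 6 in medulla. Syt10 alone had a highest region whose libraries did not overlap those of the next.

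**Figure D1:**
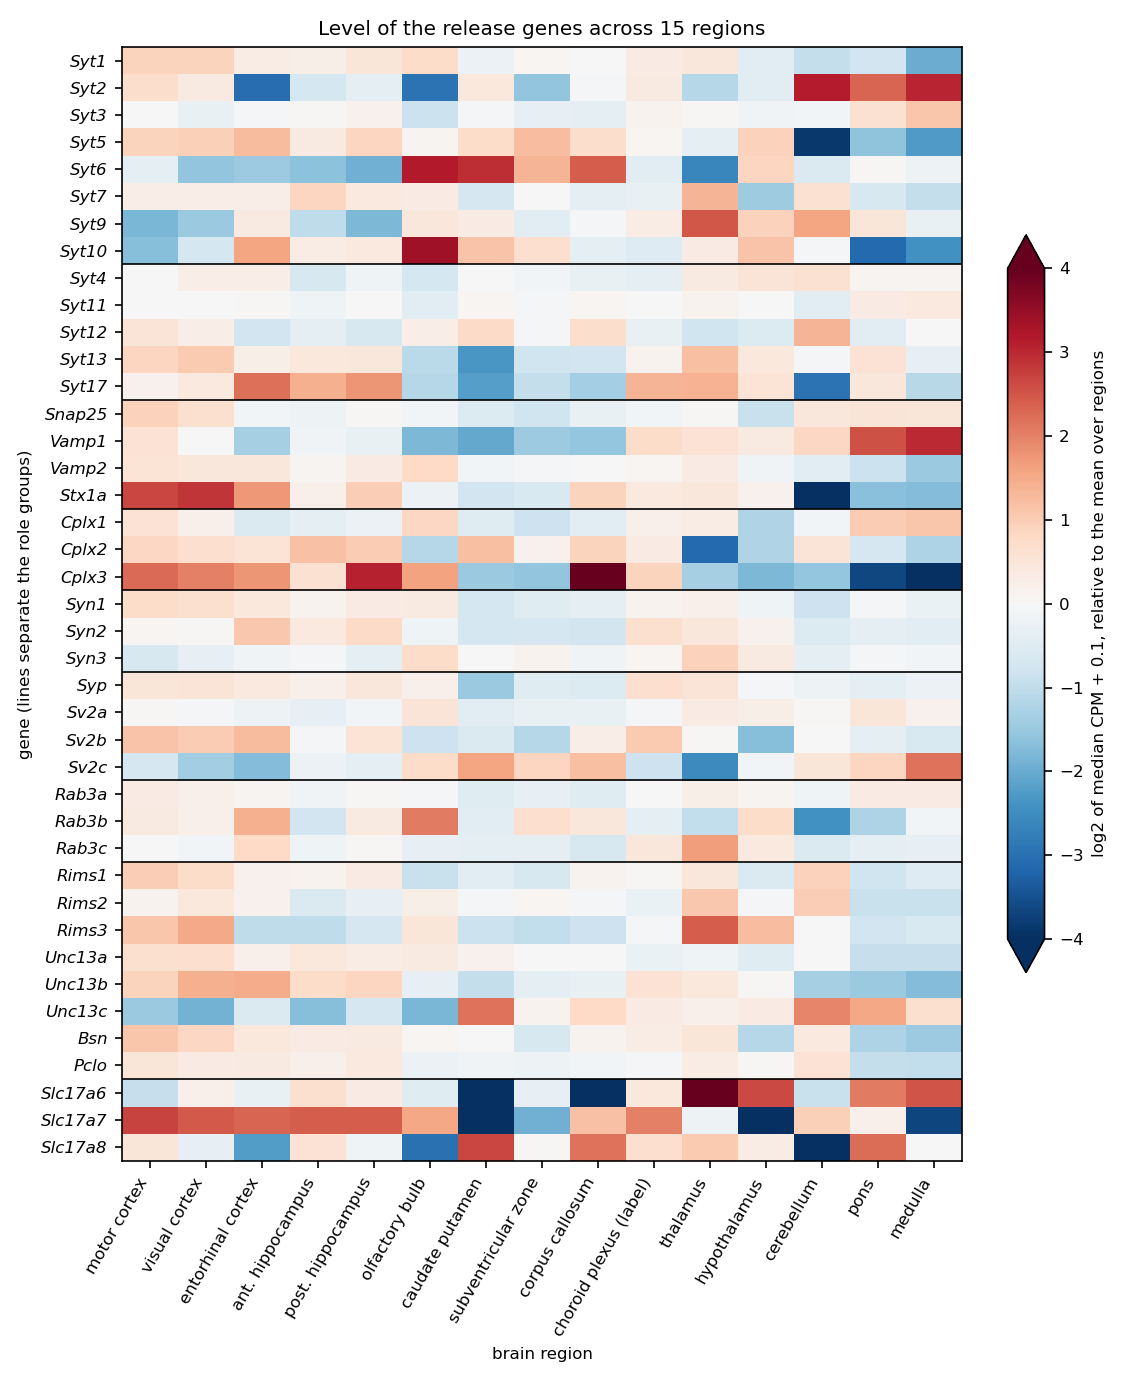
Level of each of the 41 genes (vertical axis, grouped by role) in each of the 15 brain regions (horizontal axis), as log2 of the median CPM with 0.1 added, relative to the gene's mean over regions (colour, limited to 4 either way). Stx1a, Slc17a6 and Slc17a7 change from deep red to deep blue between regions, and Sv2a, Rab3a and Syt11 stay pale.

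Among the calcium sensors, Syt1, the fast sensor of forebrain synapses, ranged from 1898 to 2164 CPM in motor cortex (median 2061) and from 158 to 526.4 CPM in medulla (median 282). Syt2, the fast sensor of many hindbrain and inhibitory synapses, ran the other way, with a median of 214 CPM in cerebellum (134 to 265) and 200.5 CPM in medulla, against 2.84 CPM in entorhinal cortex. The motor cortex and medulla ranges of Syt1 did not overlap. Syt10, a sensor of growth factor release known from the olfactory bulb, was highest there (84.3 to 155 CPM, median 112), above every library of entorhinal cortex, the next region (5.16 to 63.6 CPM). Syt9 had a median of 118 CPM in thalamus and 5.93 CPM in motor cortex, and Syt6 of 212 CPM in olfactory bulb and 3.75 CPM in thalamus. Syt7, the slow sensor linked to asynchronous release, was highest in thalamus (median 167 CPM) and lowest in hypothalamus (24.5 CPM). The flattest of the 13 synaptotagmins was Syt11, which does not bind calcium: its medians ran from 602 CPM in cerebellum to 1080 CPM in medulla. Syt4, which also binds calcium weakly or not at all, had medians from 174 CPM in olfactory bulb to 432 CPM in cerebellum, and Syt17 from 3.52 CPM in cerebellum to 129 CPM in entorhinal cortex (20.1 to 158).

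Of the SNARE genes, Snap25, the plasma membrane SNARE with 2 helices in the bundle, was the most abundant member per length (median of region medians 399 CPM per kilobase of exon). It ranged from 4959 to 6230 CPM in motor cortex and from 1088 to 2396 CPM in hypothalamus. The vesicle SNAREs split by region: Vamp1 had a median of 1188 CPM in medulla (922 to 1502) and 36.2 CPM in caudate putamen (19.0 to 184), while Vamp2 had 1394 CPM in olfactory bulb and 289 CPM in medulla. Stx1a, the plasma membrane syntaxin, showed the widest contrast of the SNAREs, with a median of 426 CPM in visual cortex (358 to 483) and 1.36 CPM in cerebellum (0 to 7.29); no library of either region reached the other. The complexins also split. Cplx1 was highest in medulla (median 1486 CPM) and lowest in hypothalamus (299 CPM), whereas Cplx2 was highest in caudate putamen (976 CPM) and lowest in thalamus (49.3 CPM). Cplx3, a complexin of retinal and subplate neurons, reached a median of 48.7 CPM in corpus callosum (11.1 to 98.2) and 0 CPM in medulla.

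Within the vesicle pool some paralogs were even across regions and others regional. Synapsins tether vesicles to each other, and Syn1 ran from a median of 339 CPM in cerebellum to 1006 CPM in motor cortex, Syn2 from 306 CPM in corpus callosum to 1071 CPM in entorhinal cortex and Syn3 from 46.2 CPM in motor cortex to 136 CPM in thalamus. Sv2a, the binding site of levetiracetam, differed 1.98-fold between its highest and lowest region (531 CPM in olfactory bulb, 269 CPM in caudate putamen), and Rab3a, the most abundant Rab3, 1.77-fold. Their relatives were more regional: Sv2c had 132 CPM in medulla and 4.94 CPM in thalamus, Rab3b 274 CPM in olfactory bulb and 12.0 CPM in cerebellum, and Rab3c 978 CPM in thalamus and 200.5 CPM in corpus callosum. At the active zone, the scaffold genes Bsn and Pclo were both lowest in medulla (42.9 and 199 CPM) but highest in motor cortex (253 CPM) and cerebellum (584 CPM). Unc13c, the Munc13 of cerebellar granule cells, had a median of 175 CPM in cerebellum, but its highest region was caudate putamen (201 CPM, 105 to 235). The counting used no strand, and Syn3 shares 14.1% of its exon bases with Timp3 on the other strand, so reads of those 2 genes cannot be told apart there; the same holds for 8.67% of Syt6 (Atg4a-ps) and 3.92% of Unc13a (Colgalt1).

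Vesicular glutamate transporters fill vesicles with glutamate and mark glutamatergic neurons, VGLUT1 (Slc17a7) in cortex, hippocampus and cerebellar granule cells and VGLUT2 (Slc17a6) in thalamus, hypothalamus and brainstem. Slc17a6 had a median of 891 CPM in thalamus (592 to 1092), 307 in hypothalamus, 284 in medulla and 209 in pons, and 0.664 CPM in caudate putamen, where 11 of 58 libraries had no read. Slc17a7 had 622 CPM in motor cortex (543 to 717), 525.9 in visual cortex and 515 in posterior hippocampus, and 0.632 CPM in hypothalamus, where 14 of 55 libraries had no read. The hypothalamus was thus 2nd of 15 regions for Slc17a6 and last for Slc17a7. Libraries of caudate putamen spread widely: Slc17a6 reached 84.6 CPM in 1 of them and Slc17a7 reached 196 CPM in another. Slc17a8 (VGLUT3), found in cholinergic and serotonergic neurons, was highest in caudate putamen (7.65 to 21.4 CPM, median 14.3) and pons (0.665 to 43.3 CPM, median 10.7), whose ranges overlapped, and 53 of 58 cerebellum libraries had no read of it.

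**Figure D2:**
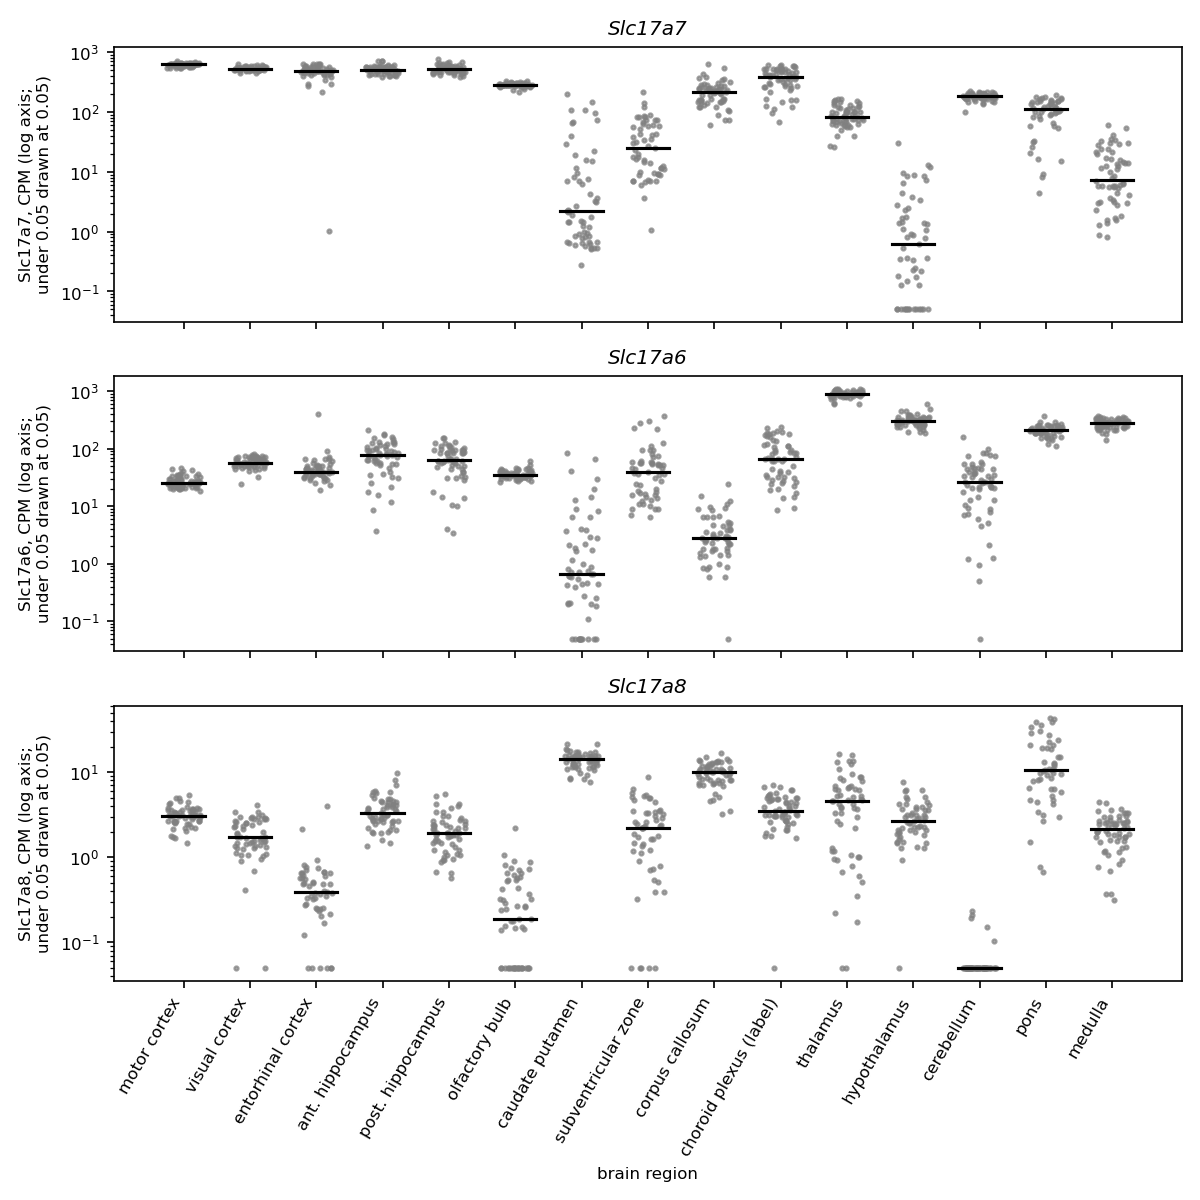
CPM on a log axis (vertical; values under 0.05 drawn at 0.05) of Slc17a7, Slc17a6 and Slc17a8 in every library of each region (horizontal). Slc17a7 and Slc17a6 are high in different regions, and caudate putamen, hypothalamus and cerebellum show libraries far from their region's median.

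Ratios between paralogs put the regional split on 1 scale. These are log2 ratios of reads, so they compare regions, not the amounts of the 2 RNAs. The Vamp1 to Vamp2 ratio had a median of 1.99 in medulla (1.42 to 3.12) and 1.01 in pons, was below 0 in the median of the other 13 regions, and reached -5.03 in olfactory bulb. The Syt2 to Syt1 ratio had the same 2 hindbrain regions and cerebellum at the top, with medians of -0.49 in medulla, -1.42 in cerebellum and -2.48 in pons, against -9.15 in olfactory bulb. The Cplx1 to Cplx2 ratio was highest in thalamus (median 3.81), medulla (3.11), olfactory bulb (2.66) and pons (2.44), all without overlap with caudate putamen (-1.29 to 0.20), its lowest region. The Sv2b to Sv2a ratio ran from -3.32 in hypothalamus to 0.05 in entorhinal cortex. The Slc17a7 to Slc17a6 ratio ran from -8.55 in hypothalamus to 6.08 in corpus callosum.

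**Figure D3:**
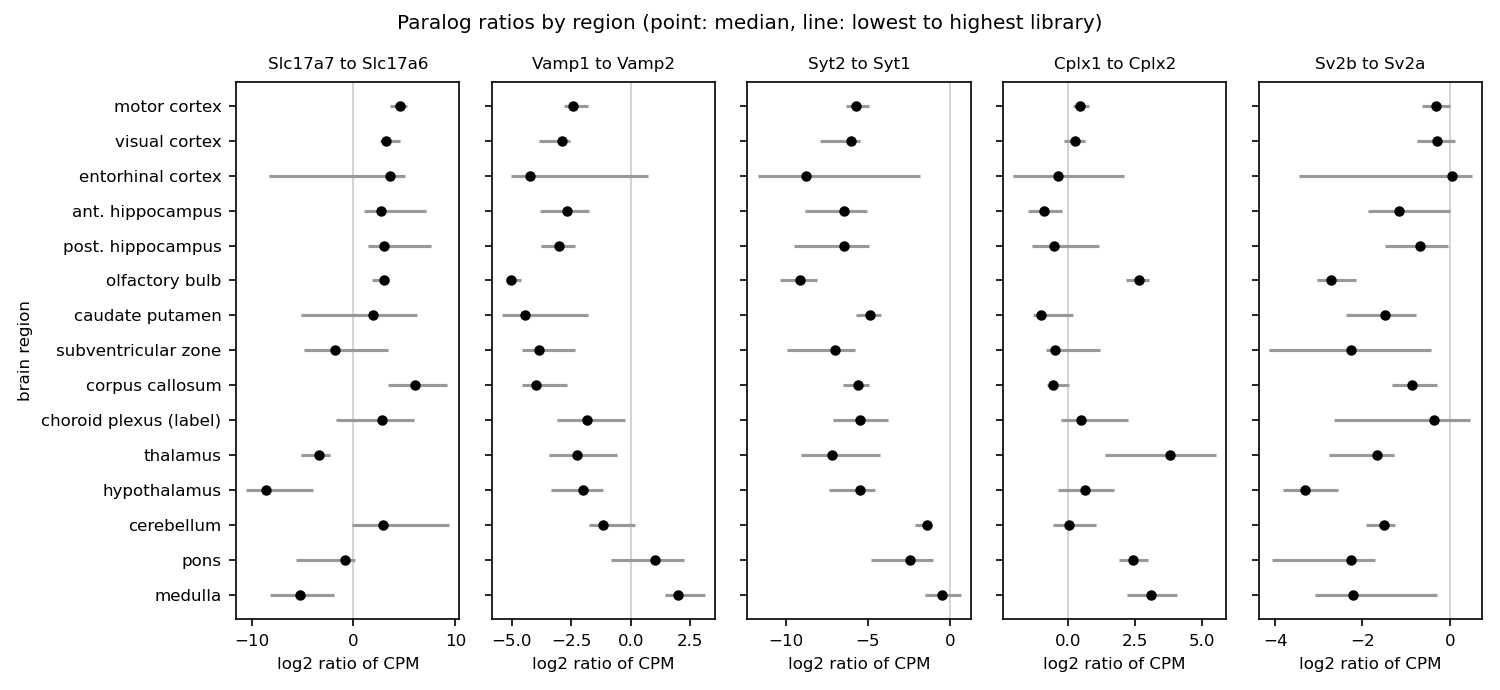
Log2 ratio of CPM (horizontal) of 5 paralog pairs in the 15 regions (vertical); points are medians over libraries and lines run from the lowest to the highest library. Medulla and pons are high for Vamp1 to Vamp2, Syt2 to Syt1 and Cplx1 to Cplx2, and olfactory bulb is lowest for Vamp1 to Vamp2 and Syt2 to Syt1 but among the highest for Cplx1 to Cplx2.

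Differences between 6 pairs of regions were tested with edgeR's quasi-likelihood test (adjusted for age and sex, Benjamini-Hochberg adjustment over all genes tested). The mouse was not held as a block in these tests. Visual against motor cortex called 11 members higher and 25 lower of 41 (35.7% and 32.1% of all genes). The largest differences were Syt6 (-1.12 ± 0.11 log2, adjusted p 3.51e-17) and Slc17a6 (1.05 ± 0.05, adjusted p 2.28e-36), and the median over members was a shift of -0.12. Posterior against anterior hippocampus called 25 higher and 9 lower of 41 (28.5% and 28.1% of all genes), led by Cplx3 (2.20 ± 0.16, adjusted p 1.01e-23) and Rab3b (1.07 ± 0.08). Here most of the machinery was higher in the posterior part, with Stx1a at 0.80 ± 0.05 and Syt1 at 0.29 ± 0.02. Medulla against pons called 13 higher and 16 lower of 40 (31.2% and 30.8%), with Slc17a7 (-3.19 ± 0.22) and Slc17a8 (-2.72 ± 0.19) lowest and Sv2c (1.36 ± 0.07) and Rab3b (1.12 ± 0.07) highest.

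Against motor cortex, thalamus called 16 members higher and 22 lower of 41 (44.9% and 41.3% of all genes), cerebellum 11 and 29 (46.3% and 45.4%) and corpus callosum 9 and 29 (45.3% and 42.8%). Thalamus was higher for Slc17a6 (4.97 ± 0.05 log2), Syt9 (4.28 ± 0.07) and Rab3c (1.62 ± 0.03) and lower for Cplx2 (-3.37 ± 0.12) and Slc17a7 (-2.83 ± 0.07). Cerebellum was higher for Unc13c (3.31 ± 0.03), Syt9 (3.27 ± 0.04) and Syt2 (2.30 ± 0.04) and lower for Stx1a (-7.88 ± 0.05) and Syt5 (-4.69 ± 0.07). Corpus callosum was lower for Slc17a6 (-2.80 ± 0.14), Vamp1 (-2.07 ± 0.07) and Stx1a (-1.77 ± 0.07) and higher for Syt6 (2.77 ± 0.07) and Unc13c (2.24 ± 0.07). Of those corpus callosum differences, Syt6, Unc13c and Sv2c (1.83 ± 0.06) were also at their highest or 2nd highest level in caudate putamen, whose marker genes these libraries carried.

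Change with age was tested in each region as a slope over all 7 ages, adjusted for sex. Mice of 3, 15, 18 and 21 months had numbers 16 to 56, and those of 12, 26 and 28 months had numbers outside that run. The meaning of the numbers is not given. Where 12, 26 or 28 months are set against the ages of that run, age cannot be told apart from mouse number. Of 611 tests of a member in a region, 15 rose (2.45%) and 52 fell (8.51%), against 5.87% rising and 4.71% falling of 214677 tests over all genes (edgeR, adjusted p under 0.05). The median slope of the members was -0.0027 log2 per month, and over all genes -0.00011. Of the 67 called slopes, 22 had ranges at 3 and 28 months that did not overlap, and 4 at 3 and 21 months. The 28-month group held 3 mice, fewer than the 21-month group, so these 2 counts are not alike. The share over all called genes is not given. The active zone group fell in 18 of 120 tests and rose in none by edgeR; DESeq2 also called 18 and 0, males alone gave 14 and 0, and mice 16 to 56 alone (ages 3, 15, 18 and 21 months) gave 10 falling and 2 rising. Rab3 genes fell in 7 and rose in 3 of 45, vesicular glutamate transporters fell in 4 of 42 and complexins fell in 4 and rose in 2 of 44. The vesicle membrane group rose in 4 and fell in 3 of 60, the calcium sensors rose in 3 and fell in 5 of 120, and SNAREs rose in 2 and fell in 4 of 60. Synapsins rose in 1 and fell in 4 of 45, and the other synaptotagmins fell in 3 of 75 (all Syt13). Syt4 and Syt17 were called in no region by edgeR, with slopes from -0.0058 to 0.0070 and from -0.030 to 0.0091 log2 per month.

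The 14 neuron genes outside the release machinery also fell more often than they rose. Of 210 tests, 4 rose and 29 fell (1.9% and 13.8%, against 5.87% and 4.71% over all genes), with a median slope of -0.0039 log2 per month. In the same libraries glial markers mostly went the other way: 9 microglia genes rose in 94 and fell in 2 of 135 tests (median slope 0.020), 8 astrocyte genes rose in 27 and fell in 8 of 120 (0.0014), and 9 genes of mature oligodendrocytes rose in 13 and fell in 4 of 135 (0.0055). Lists of single neuron types did not share 1 direction. More tests rose than fell for dentate granule (8 and 5 of 73), striatal projection (6 and 2 of 115), hypothalamic peptide (4 and 3 of 57) and cortical projection genes (1 and 0 of 80). More fell than rose for cerebellar (15 and 3 of 99), thalamic relay (5 and 1 of 90), olfactory bulb (3 and 2 of 66) and hindbrain neuron genes (3 and 0 of 28). The part of these neurons and glia in the members' slopes was not tested. When the mean level of the 14 neuron genes was added to the model, 43 of the members' tests rose and 50 fell. The balance of direction among the members' calls thus depends on that term. The share of all genes called with it is not given, and whether the shift is particular to the members was not tested. The active zone group then fell in 16 and rose in 5 tests. In the olfactory bulb the 8 rising and 5 falling calls were all made again with that term, and Rims3 was added to the risers, whereas in males alone 4 of the 8 and 4 of the 5 were called.

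**Figure D4:**
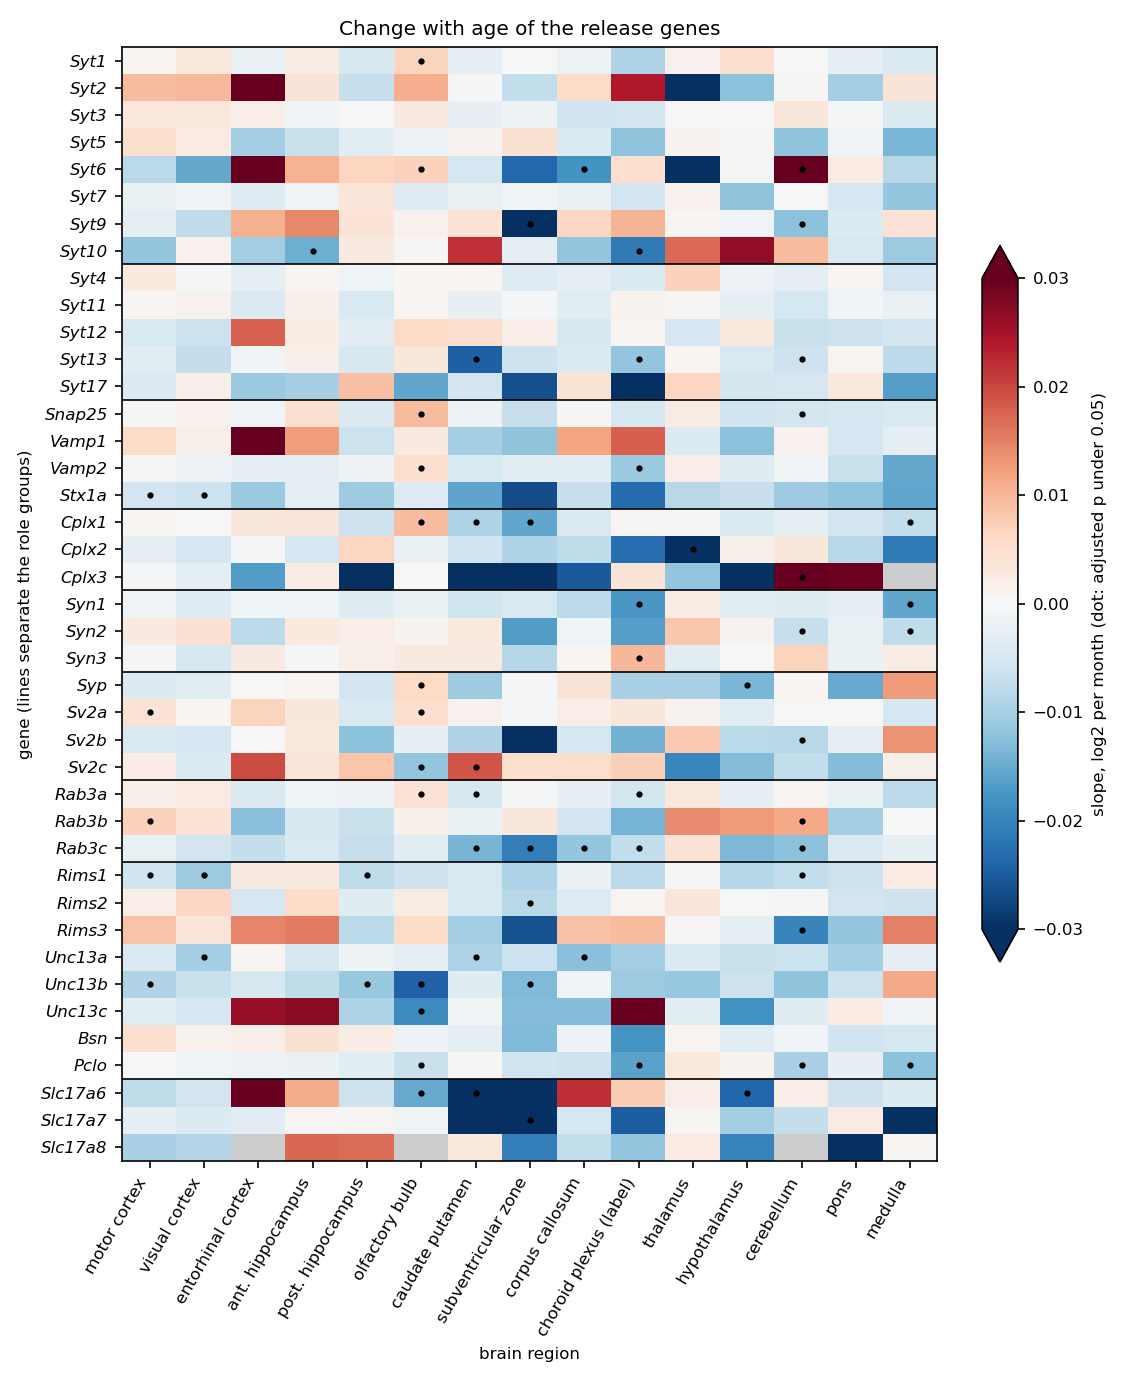
Slope with age (log2 per month, colour) of each gene (vertical, grouped by role) in each region (horizontal), with dots on slopes past the adjusted p threshold of 0.05. Active zone genes carry dots only on falling slopes, and the olfactory bulb column holds 8 of the 15 rising dots.

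At the active zone, Unc13b (Munc13-2) fell in 4 regions, most in olfactory bulb, and its call in subventricular zone ended without any 1 of 16 of 55 mice (adjusted p up to 0.115). In olfactory bulb it ranged from 13.7 to 25.0 CPM at 3 months (median 17.4, n = 10), from 10.6 to 17.2 at 12 months (median 13.3), and from 4.91 to 12.1 at 21 months (median 10.3, n = 10). The 5 males of 26 months had 10.6, 10.6, 11.8, 12.3 and 13.7 CPM, and the 3 males of 28 months had 12.4, 14.3 and 15.9. The libraries of 21 months all lay below those of 3 months, whereas those of 28 months overlapped them, so the level was lowest at 21 months. Its slope was -0.024 ± 0.0043 log2 per month (adjusted p 4.09e-05), a fall of 34.2% over the 25 months spanned if linear. Unc13c also fell in olfactory bulb (-0.019 ± 0.0047, adjusted p 0.00251), and Unc13a (Munc13-1) in visual cortex, caudate putamen and corpus callosum by 15.0% to 19.7% over the span. The caudate putamen call of Unc13a ended without any 1 of 10 of 58 mice (adjusted p up to 0.102). Every mouse was left out in turn only in olfactory bulb, cerebellum, caudate putamen, visual cortex, subventricular zone and choroid plexus. In the other regions only 12 mice were left out, so calls there, here and in later paragraphs, were checked less.

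Rims1, the RIM protein that joins vesicle, Munc13 and calcium channel, fell in motor and visual cortex, posterior hippocampus and cerebellum, where 15 of 58 mice each ended the call when left out (adjusted p up to 0.0919). In visual cortex it ranged from 158 to 200 CPM at 3 months (median 181, n = 10) and had 139, 143 and 146 CPM as the lowest, median and highest of the 3 libraries at 28 months, below every library of 3 months. The slope there was -0.011 ± 0.0031 log2 per month (adjusted p 0.0151) and that in motor cortex -0.006 ± 0.0013 (adjusted p 0.000711). Pclo (Piccolo), the largest active zone scaffold, fell in choroid plexus, medulla, cerebellum and olfactory bulb by 10.8% to 24.4% over the span. Rims3 fell in cerebellum alone by 29.2%, with 58.9 to 87.6 CPM at 3 months and 45.2 to 45.9 CPM at 28 months. Rims2 fell in subventricular zone (adjusted p 0.0362), a call that ended without any 1 of mice 17, 29, 33 and 59. Bsn (Bassoon) passed the test in no region by edgeR, with slopes from -0.018 to 0.0048.

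Rab3 GTPases sit on the vesicle and bind RIM. Rab3c fell in 5 regions, more than any other member: caudate putamen, cerebellum, corpus callosum, subventricular zone and choroid plexus. In subventricular zone it ranged from 227 to 390 CPM at 3 months (median 265, n = 10) and from 174 to 250.9 at 21 months (median 213, n = 10). The 4 libraries of 26 months had 164, 188, 190 and 199.5 CPM and the 3 of 28 months 198, 206 and 207 CPM, all below the lowest library of 3 months. The slope was -0.021 ± 0.0044 log2 per month (adjusted p 0.00116), a fall of 30.2% over the span. In caudate putamen, where the spread was smaller, it was -0.014 ± 0.002 (adjusted p 8e-07), and both calls held without any 1 mouse. The choroid plexus call ended without mouse 17, 33 or 41. Rab3a fell in caudate putamen and choroid plexus and rose in olfactory bulb (590 to 701 CPM at 3 months, 704 to 773 at 28 months), and Rab3b rose in motor cortex and cerebellum. Single mice ended 3 of these calls: any 1 of 4 for Rab3a in caudate putamen (adjusted p up to 0.118), of 3 for Rab3a in choroid plexus (0.0690) and of 8 for Rab3b in cerebellum (0.0980).

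Complexins were called falling in some regions and rising in others. Over all regions together, a difference in slope between regions was not called for Cplx1 (edgeR, adjusted p 0.151). It was called for Cplx2 (adjusted p 0.0003675) and for Cplx3 (0.0234), but for Cplx3 not by limma with the mouse as a block. Cplx1 fell in subventricular zone, from 336 to 517 CPM at 3 months (median 418, n = 10) to 303, 315 and 346 CPM in the 3 libraries of 28 months, which overlapped. The 4 libraries of 26 months had 286, 339, 341 and 355 CPM (slope -0.016 ± 0.0044 log2 per month, adjusted p 0.0193). It also fell in medulla and in caudate putamen, where the call ended without mouse 17 or 33 (adjusted p up to 0.0687) and the slope was 0.0011 (adjusted p 0.797) with the neuron genes in the model. In olfactory bulb it rose: 919 to 1178 CPM at 3 months (median 1095, n = 10), 1188 to 1299 at 21 months (median 1243) and 1234, 1319 and 1353 at 28 months. Every library of 21 months and of 28 months lay above every library of 3 months (slope 0.0093 ± 0.0012, adjusted p 7.12e-08, a rise of 17.5% over the span). Cplx2 fell in thalamus (slope -0.059 ± 0.017, adjusted p 0.0257), but its level there was uneven, with a median of 63.5 CPM at 3 months (32.8 to 170), 153 at 12 months (30.8 to 310) and 37.7 at 28 months (31.5 to 43.4). Cplx3 rose in cerebellum from low levels (adjusted p 0.0354), a call that 8 of 58 mice each ended when left out.

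Of the SNAREs, Stx1a fell in visual and motor cortex and had a slope below 0 in all 15 regions. In visual cortex it ranged from 422 to 475 CPM at 3 months (median 438, n = 10) and from 367 to 439 at 21 months (median 415, n = 11). The 4 libraries of 26 months had 388, 394, 413 and 437 CPM and the 3 of 28 months 375, 376 and 398. The libraries of 28 months lay below all of 3 months, while those of 21 and 26 months overlapped them. The slope was -0.0065 ± 0.0016 log2 per month (adjusted p 0.0057), a fall of 10.6% over the span, and -0.0059 ± 0.0011 in motor cortex (adjusted p 4.51e-05). Snap25 fell in cerebellum (-0.0056 ± 0.0014, adjusted p 0.00201) and rose in olfactory bulb (0.0096 ± 0.0016, adjusted p 2e-05), where its medians were 2427 CPM at 3 months (2168 to 2652) and 2774 CPM at 21 months (2564 to 3081), with overlap. Vamp2 fell in choroid plexus (a call that ended without mouse 33 or 41) and rose in olfactory bulb, and Vamp1 was called in no region by edgeR.

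**Figure D5:**
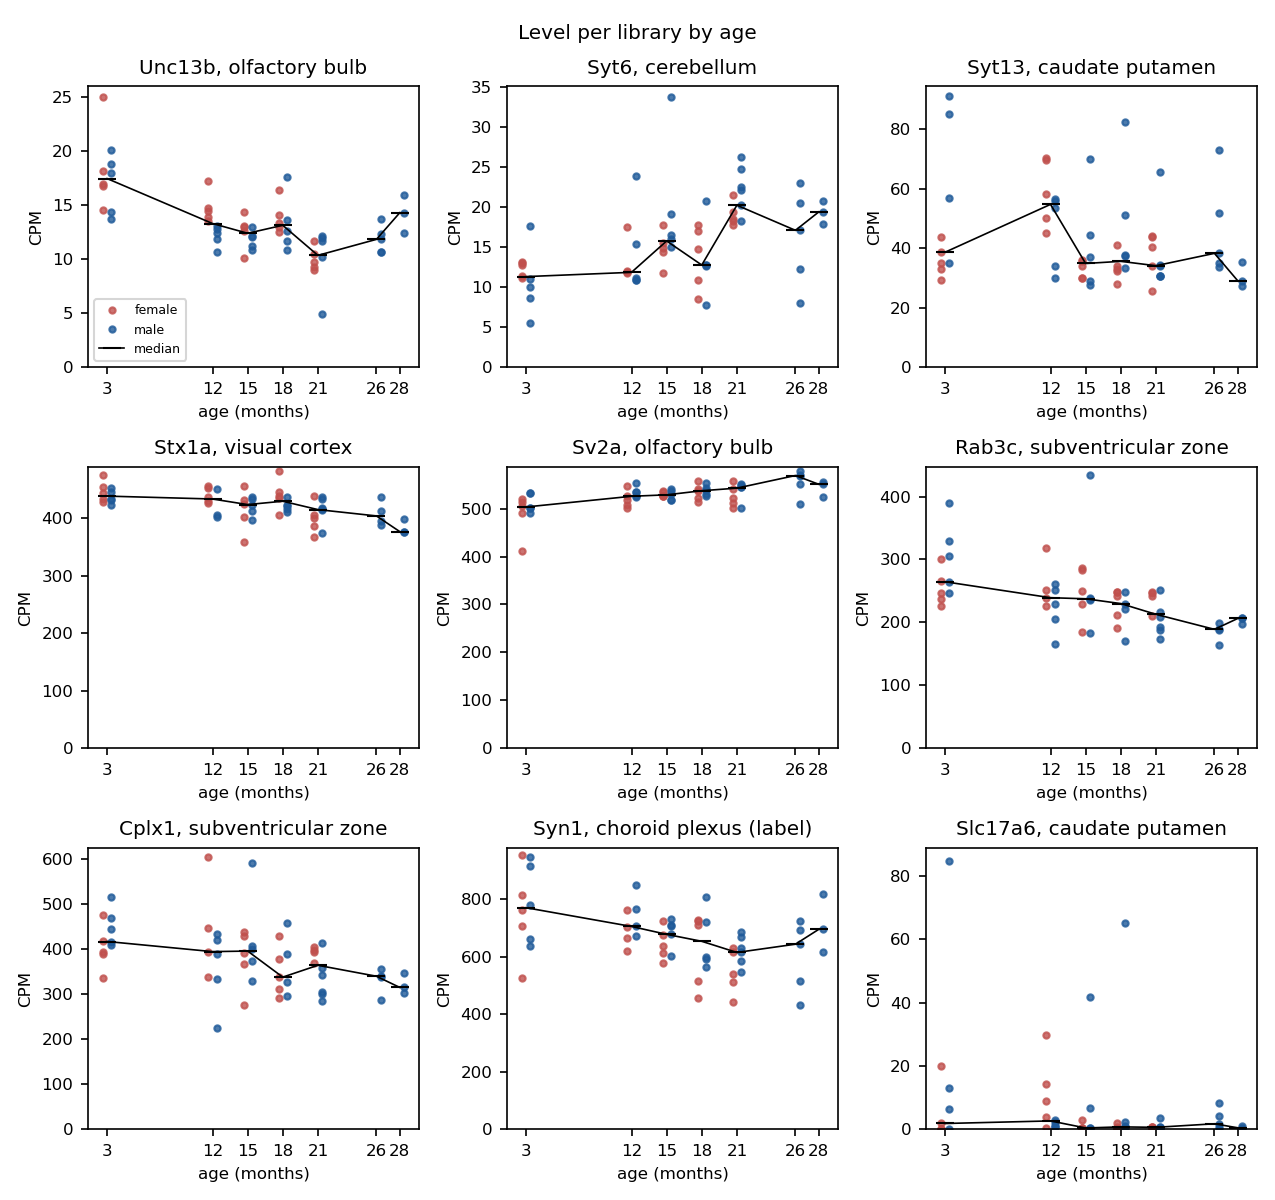
CPM (vertical, from 0) of the member with the most called regions in each of the 9 role groups, by age in months (horizontal), in the region of its largest called slope; points are libraries, coloured by sex, and bars joined by a line are medians. Unc13b in olfactory bulb is lowest at 21 months, Rab3c in subventricular zone drifts down, and Slc17a6 in caudate putamen is near 0 except in a few libraries.

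Among the calcium sensors, Syt6 rose in cerebellum, where it is low. It ranged from 5.48 to 17.7 CPM at 3 months (median 11.3, n = 10) and from 17.8 to 26.3 at 21 months (median 20.2, n = 11). At 26 months the 5 libraries had 8.01, 12.3, 17.1, 20.5 and 22.9 CPM and at 28 months the 3 had 17.8, 19.4 and 20.8. The libraries of 21 and 28 months all lay above those of 3 months, and those of 26 months overlapped them. The slope was 0.032 ± 0.0066 log2 per month (adjusted p 0.000273), a rise of 73.8% over the span, and it held without any 1 mouse. Syt6 also rose in olfactory bulb (adjusted p 0.0219, a call that ended without mouse 21) and fell in corpus callosum, from 109.5 to 167 CPM at 3 months (median 130, n = 10) to 51.0, 100.3 and 113 CPM at 28 months, with overlap (slope -0.018 ± 0.0059, adjusted p 0.0245). In the corpus callosum libraries the 8 striatal projection neuron genes summed to a median of 6091 CPM at 3 months (4369 to 8178) and 5358 at 28 months (2213 to 5414). The 8 choroid plexus epithelium genes had 1073 CPM (417 to 24220) and 6698 CPM (624 to 16090). Both overlapped, and their part in the Syt6 slope was not tested. Syt10 fell in anterior hippocampus (-0.015 ± 0.0046, adjusted p 0.0308) and in choroid plexus (-0.021 ± 0.0077, adjusted p 0.0412), where 13 of 57 mice each ended the call when left out. Syt1 rose in olfactory bulb by 12.4% (adjusted p 7.41e-05). Syt9 fell in cerebellum, from 61.2 to 78.6 CPM at 3 months to 51.5 to 53.8 CPM at 28 months (adjusted p 0.00302). It also fell in subventricular zone, a call that ended without mouse 33 or mouse 49. Syt2, Syt3, Syt5 and Syt7 were called in no region by edgeR.

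Syt13, a synaptotagmin without calcium-binding residues, fell in caudate putamen, choroid plexus and cerebellum, where the call ended without mouse 17 (adjusted p 0.0504). In caudate putamen it ranged from 29.4 to 91.4 CPM at 3 months (median 38.7, n = 9) and from 25.7 to 65.7 at 21 months (median 34.1, n = 11), and the 3 libraries of 28 months had 27.5, 29.0 and 35.4 CPM. At 26 months the 5 libraries had 33.5, 34.9, 38.3, 51.7 and 73.0 CPM. The ages overlapped throughout. The slope was -0.024 ± 0.0082 log2 per month (adjusted p 0.036), and the call ended without any 1 of mice 29, 33, 57, 58 and 59 (adjusted p up to 0.156). With the neuron genes in the model it turned to 0.013 (adjusted p 0.00967).

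Synapsins and vesicle glycoproteins coat and decorate the vesicle. Syn1 fell in choroid plexus and medulla. In choroid plexus it ranged from 527 to 953 CPM at 3 months (median 771, n = 10) and from 443 to 688 at 21 months (median 615, n = 11). The 5 libraries of 26 months had 431, 515, 644, 695 and 726 CPM and the 3 of 28 months 617, 696 and 818. All ages overlapped, and at 28 months 1 of the 3 libraries lay above the median of 3 months (slope -0.017 ± 0.004 log2 per month, adjusted p 0.00132). In the same libraries the sum of 8 choroid plexus epithelium genes had a median of 8220 CPM at 3 months, 11380 at 21 months and 11540 at 28 months, with wide overlap. With that list in the model, the falling calls in choroid plexus went from 7 to 3, all of them among the 7, and Syn1 kept its call (slope -0.017, adjusted p 0.00234). In males alone 0 members were called in choroid plexus by edgeR, and Syn1 had a slope of -0.015 (adjusted p 0.0596). Syn2 fell in cerebellum and medulla, and Syn3 rose in choroid plexus (adjusted p 0.00989), with the overlap with Timp3 noted.

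Sv2a rose in olfactory bulb and motor cortex. In olfactory bulb it ranged from 412 to 533 CPM at 3 months (median 503.7, n = 10) and from 501 to 559 at 21 months (median 543, n = 10). At 26 months the 5 libraries had 510, 551, 569, 571 and 579 CPM and at 28 months the 3 had 525, 551 and 555. The ages overlapped, and the slope was 0.0051 ± 0.0012 log2 per month (adjusted p 0.00152), a rise of 9.22% over the span. Sv2c, which is known from striatal and other basal ganglia neurons, rose in caudate putamen, from 60.4 to 85.4 CPM at 3 months (median 67.9, n = 9) to 87.8, 92.2 and 102 at 28 months, without overlap (slope 0.019 ± 0.0039, adjusted p 0.000404). In olfactory bulb Sv2c fell, from 45.3 to 66.1 CPM at 3 months to 38.0 to 42.5 CPM at 28 months (adjusted p 0.000654). Sv2b fell in cerebellum. Syp (synaptophysin) fell in hypothalamus and rose in olfactory bulb, where 20 of 58 mice each ended the call when left out.

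Of the glutamate transporters, Slc17a6 fell in caudate putamen, hypothalamus and olfactory bulb, and Slc17a7 in subventricular zone. In caudate putamen, Slc17a6 is hardly present: its median was 1.77 CPM at 3 months (0 to 84.6, n = 9), 2.58 at 12 months (0.204 to 29.9) and 0.551 at 21 months (0 to 3.65, n = 11), and the 3 libraries of 28 months had 0, 0.392 and 0.974 CPM. At 26 months the 5 libraries had 0, 0.614, 1.68, 4.05 and 8.25 CPM. Few libraries carried the slope (-0.15 ± 0.041 log2 per month, adjusted p 0.00974), the ages overlapped, and without mouse 33 it was -0.11 (adjusted p 0.138). In hypothalamus, where the gene is abundant, the slope was -0.024 ± 0.0056 (adjusted p 0.00444), and in olfactory bulb -0.015 ± 0.0038 (adjusted p 0.00318). Slc17a7 in subventricular zone (adjusted p 0.0373) lost its call without any 1 of 9 mice. Slc17a8 was called in no region by edgeR.

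By region, the olfactory bulb had the most members called rising: 8 of 40 rose (Syt1, Syt6, Snap25, Vamp2, Cplx1, Syp, Sv2a and Rab3a) and 5 fell (Unc13b, Unc13c, Pclo, Sv2c and Slc17a6), against 7.31% rising and 8.3% falling of all genes there. Among the risers, Syt1, Snap25, Vamp2 and Cplx1 code for the sensor, SNAREs and complexin of fast release, and among the fallers Unc13b, Unc13c and Pclo code for priming and scaffold proteins of the active zone. Cerebellum had 3 rising and 9 falling of 40 (9.45% and 7.52% of all genes), and choroid plexus 1 rising and 7 falling of 41 (11.1% and 9.03%). Caudate putamen had 1 rising and 6 falling (7.32% and 6.11%) and subventricular zone 0 rising and 6 falling (4.5% and 3.27%). Medulla had 0 and 4 (6.33% and 3.95%), motor cortex 2 and 3 (8% and 8.65%), corpus callosum 0 and 3 (9.06% and 8.71%) and visual cortex 0 and 3 (5.13% and 4.46%). Posterior hippocampus and hypothalamus had 2 falling each (2.05% and 3% of all genes) and anterior hippocampus and thalamus 1 each (3.64% and 1.51%), with 0 rising. These counts depended on the mice and terms fitted. In males alone the olfactory bulb had 4 rising and 5 falling, subventricular zone 14 falling, caudate putamen 1 falling and choroid plexus 0. In mice 16 to 56 alone, subventricular zone and caudate putamen had 1 falling each and medulla 0. With the neuron genes in the model, more members rose than fell also in corpus callosum (6 and 4), hypothalamus (3 and 0), thalamus (3 and 1) and visual cortex (3 and 2). The share of all genes called under these settings is not given. Whether the shifts are particular to the members was not tested. In pons 0 of 41 were called by edgeR (4.69% of all genes; 3 members at an unadjusted p under 0.05, and 0 by DESeq2) and in entorhinal cortex 0 of 40 (0.0964% of all genes; 5 members at an unadjusted p under 0.05, and 0 by DESeq2). In subventricular zone 36 of 41 slopes lay below 0, and in pons 34 of 41. The share of slopes below 0 over all genes of these regions is not given. Slopes of 1 region come from the same libraries, so their signs are not independent.

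Comparing 21 with 3 months alone, ages at which both sexes were sampled, 13 tests were higher (2.13%) and 34 lower (5.56%) of 611, against 3.53% and 2.65% over all genes (edgeR). Choroid plexus held 14 of the lower calls (10.9% of all genes there), among them Cplx2 (-0.62 log2), Bsn (-0.55), Syn1 (-0.42) and Pclo (-0.42). The olfactory bulb held 8 of the higher calls (5.45% of all genes there), with Snap25 at 0.23 and Cplx1 at 0.18, and its lower calls included Unc13b (-0.71) and Unc13c (-0.65). Bsn was higher in anterior hippocampus (0.34) and motor cortex (0.16), opposite to choroid plexus. In males alone the counts were 8 and 6.

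Whether the slope differed between regions was tested over all 15 regions together. It differed for 14 of 41 members by edgeR, against 16.4% of 15069 genes: Syt2, Syt6, Syt9, Syt12, Vamp1, Cplx2, Cplx3, Syn2, Sv2c, Rims2, Rims3, Unc13c, Pclo and Slc17a6. That fit did not hold the mouse as a block. With limma and the mouse as a replicate block 10 passed, 9 of them among the 14; Syt2 (adjusted p 0.0737), Pclo (0.0824), Vamp1 (0.510), Cplx3 (0.623) and Slc17a6 (1.00) did not, and Slc17a8 was added. Each region's slope was also set against the mean of the other 14, an analysis added after the data were seen (limma with voom and the mouse as a block). All 41 members were tested in each of the 15 regions, and 9 of these tests, of 8 members, passed. Snap25 had a higher slope in olfactory bulb (0.012 ± 0.0035 log2 per month, adjusted p 0.0385), Syt6 in cerebellum (0.038 ± 0.0097, adjusted p 0.00841), Unc13c in choroid plexus (0.04 ± 0.0097, adjusted p 0.00994) and Syt12 in entorhinal cortex (0.019 ± 0.0049, adjusted p 0.0209). Lower slopes were found for Cplx2 in thalamus (-0.035 ± 0.0075, adjusted p 0.00183), Syt9 in subventricular zone (-0.037 ± 0.0087, adjusted p 0.00755), Syt6 in corpus callosum (-0.021 ± 0.0064, adjusted p 0.0399), Pclo in choroid plexus (-0.011 ± 0.0033, adjusted p 0.0407) and Slc17a8 in pons (-0.04 ± 0.011, adjusted p 0.0415). Over all regions, 0.605% of tests of all genes were higher and 0.618% lower. The members passed at shares not far from these. The Cplx1 rise in olfactory bulb did not pass this test.

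The 5 paralog ratios were tested for change with age in every region by permuting ages among mice of 1 sex (two-sided, 75 tests, Benjamini-Hochberg over them), and 2 passed. The Cplx1 to Cplx2 ratio rose in olfactory bulb, from 2.18 to 2.61 at 3 months (median 2.51, n = 10) to 2.85, 2.86 and 3.01 at 28 months, without overlap. The slope was 0.012 ± 0.0023 per month (permutation p 1e-05, the smallest that 1e+05 permutations can give, adjusted p 0.00075). Over the same ages Cplx2 had medians of 198 CPM at 3 months and 170 CPM at 28 months, with ranges that overlapped. The Sv2b to Sv2a ratio fell in motor cortex, from -0.42 to -0.0020 at 3 months (median -0.20, n = 10) to -0.57, -0.35 and -0.28 at 28 months, with overlap (slope -0.0089 ± 0.0023, permutation p 0.00019, adjusted p 0.00712). In males alone neither passed.

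Differences by sex were tested in mice up to 21 months. By edgeR, 12 of 610 tests were higher in males and 11 lower (1.97% and 1.8%), against 1.24% and 1.47% over all genes. At most of these ages the sexes had separate ranges of mouse numbers, whose meaning is not given. Sex therefore could not be told apart from mouse number at those ages. Of the 23 calls, 14 lay in medulla (22.5% of all genes there). There Syp ranged from 94.9 to 392 CPM in females (median 182, n = 24) and from 82.5 to 194 in males (median 130, n = 26), which overlapped (-0.66 ± 0.13 log2, adjusted p 0.000329). Rims3 (-0.52 ± 0.10) and Sv2b (-0.50 ± 0.12) were also lower in males, and Rab3a (0.18 ± 0.04) and Syn1 (0.27 ± 0.07) higher. The females spread more widely than the males for Syp, Sv2b and Rims3. The slope with age differed between sexes for 0 of 610 tests by edgeR, with 25 at an unadjusted p under 0.05; DESeq2 also called 0, with 28 at that p, and 0.0727% of tests over all genes were called.

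The rest of the pathway was followed in 44 genes outside the 41: 21 of vesicle fusion, priming and scaffolds, 15 of vesicle membrane and filling and 8 of endocytosis. Of 653 tests, 23 rose and 45 fell (3.52% and 6.89%), against 5.87% and 4.71% over all genes. Their median slope was -0.0022 log2 per month. Fusion and scaffold genes fell in 24 and rose in 5 of 315 (7.62% and 1.59%). Erc1 (ELKS, a scaffold that binds RIM) fell in 6 regions, and Rims4 and Ppfia2 (liprin-α2) in 3 each. Membrane and filling genes rose in 11 and fell in 14 of 218 (5.05% and 6.42%), not far from the shares over all genes. Among them Sypl, a synaptophysin relative found outside neurons too, rose in 5 regions, while Syngr3 (synaptogyrin-3) fell in 3. Endocytosis genes rose in 7 and fell in 7 of 120 (5.83% each), also not far from those shares. Dnm3 (dynamin-3) rose in 4 regions, Amph (amphiphysin) fell in 4 and Bin1 rose in 2.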

How the data were processed

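The authors deposited 1 table of raw counts per gene for all libraries, made per the labels' protocols by Smart-Seq2 and Nextera from total RNA without strand information. Per the submitters' processing notes, Trim Galore 0.3.7, STAR 2.5.3a, DESeq2 and GRCm38 were used; the counting program and annotation are not given in the sources used here. Every column matched 1 labelled sample. From the counts, change with age, region pairs and sex were fitted with edgeR 4.0.16 (quasi-likelihood, TMM, genes filtered by filterByExpr) over all genes of a region, with Benjamini-Hochberg adjustment and a threshold of 0.05. DESeq2 1.42.0, limma 3.58.1 and R 4.3.3 served the alternatives. Paralog ratios used log2 CPM with a prior count of 2 and 1e+05 permutations of ages among mice of 1 sex. Errors are standard errors. Mice are the replicates, so p-values measure the spread between mice. Libraries of 1 mouse share its number across regions, and the region pairs were also fitted with the mouse as a block. Exon lengths and coordinates come from GENCODE vM21 (GRCm38). The 41 genes and the other lists were chosen with earlier results of these data known. All 41 are named, with values per library for the member of each role group with the most called regions; from each further list the 3 genes with the most called regions are named, except 1 gene that is not reported here. In 4 of the 7 ages the sexes have separate ranges of mouse numbers, whose meaning is not given. The fits were tested on simulated counts: of 67 genes given a slope of 0.01 log2 per month in cerebellum, among 13778, 35.8% were recovered, and 77.6% at 0.02.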

Additional observations from a re-analysis of the deposited data

Results flagged for a closer look

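Within an age group of 4 to 10 libraries, 12 of the 49 groups tested for the 9 lead genes had 1 library far from the rest. Chance would give about 1 in 20 only if the values followed a normal distribution. Raw CPM need not do so, so that rate is not a measure for these groups. Slc17a6 in caudate putamen had such a library at 4 ages: mouse 33 at 3 months (84.6 CPM, next 20.1), mouse 1 at 12 months (29.9 CPM, next 14.3), mouse 22 at 15 months (41.6 CPM, next 6.6) and mouse 27 at 18 months (65.3 CPM, next 2.14). Mouse 22 at 15 months and mouse 27 at 18 months were also the highest for Syt13 in caudate putamen (70.2 and 82.6 CPM). Mouse 22 was further the highest of its age in subventricular zone for Rab3c (433.6 CPM, next 286.6) and Cplx1 (592 CPM, next 439). Syt6 in cerebellum was highest in mouse 18 at 15 months (33.7 CPM, next 19.2), and Stx1a in visual cortex in mouse 43 at 18 months (482.5 CPM, next 446). Unc13b in olfactory bulb was lowest in mouse 20 at 21 months (4.91 CPM, next 8.94), and Sv2a there was lowest in mouse 49 at 3 months (412 CPM, next 491). The part of neighbouring tissue in these libraries was not tested.

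The slope with age differed between regions for 14 members (edgeR, adjusted p over all genes tested). With limma and the mouse as a block, 9 of these passed and Syt2, Pclo, Vamp1, Cplx3 and Slc17a6 did not. The smallest adjusted p were those of Syt6 (6.36e-05), Syt2 (0.0001996), Cplx2 (0.000367), Syt9 (0.0012) and Slc17a6 (0.00423). Rims3 had 0.0144, Unc13c 0.017, Syt12 0.0176, Syn2 0.019 and Cplx3 0.0234. Closest to the threshold were Rims2 (0.0338), Vamp1 (0.0439), Pclo (0.0477) and Sv2c (0.0494).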

How the results depend on the processing

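Counts of member tests are given against the values in the report. The share of all genes called under each alternative is not given. Whether a shift in a count is particular to the members was not tested. With the neuron list in the model, 43 tests rose with age and 20 were higher at 21 months; the slopes of Cplx1 (0.0011, adjusted p 0.797) and Syt13 (0.013, adjusted p 0.00967) in caudate putamen then turned from falling to above 0. With the choroid plexus list, 8 were higher at 21 months. In males alone, 7 rose with age, 8 were higher and 6 lower at 21 months, 8 members differed in slope between regions and 0 ratios changed. In mice 16 to 56 alone, which leaves out 12, 26 and 28 months, 28 fell with age. Slope differences between regions numbered 9 by limma with no block, 10 with the replicate block and 8 for each region against the other 14. Leaving out 1 of 12 mice gave 12 to 17 rising and 43 to 60 falling slopes, 11 to 15 higher and 21 to 45 lower at 21 months, 214 to 218 pair differences, 18 to 26 sex differences, 0 to 1 sex differences in slope and 7 to 14 slope differences between regions (by limma); leaving out any of 59 gave 2 to 4 ratios. Region pairs called 215 of 245 both with and without the replicate block of mice. Other size factors, DESeq2, no filter, depth terms and leaving out the doubted libraries kept every count within 1.5 times. Without the 14 libraries nearest to another region, chosen after seeing the data, 15 slopes rose and 50 fell. The causes were not tested. The median slope of the members was -0.0027 log2 per month. The test on simulated counts recovered 35.8% of slopes of 0.01 log2 per month in cerebellum. Members without a call may therefore have changed by less than this depth shows.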
